A study of Homo sapiens with 6 samples.

Results

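The genes considered here encode the soluble enzymes of the lysosome, with the activator proteins that present substrates to them and with progranulin. They number 42 of the 20037 protein-coding genes on chromosomes 1 to 22, X and Y. They were chosen by enzyme class with the peak calls and folds of these same lists already known, GALNS standing among the strongest, so their counts are descriptions and were not tested. For each gene, the entries of 4 deposited peak lists were collected whose summit, the highest point of the peak, lay inside the gene or within 3 kb of its start or end in hg38.

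The lists come from LNCaP, an androgen-responsive human prostate cancer line, and PC3, an androgen-independent one, cultured alike and without a stated treatment or genetic change. Each line gave 1 library with a METTL3 antibody, 1 with a PRMT5 antibody and 1 control library titled IgG whose antibody field names a secondary antibody, made from 100000 cells with 16 PCR cycles. An antibody held Tn5 transposase at its target in permeabilised cells, and the cut and tagged DNA was sequenced. Peak calling used the control from the matching line, and the 2 lists of a line therefore share a control. The lists held 980 PRMT5 and 173 METTL3 entries in LNCaP, and 1661 PRMT5 and 7453 METTL3 entries in PC3. Read depths are unknown and no group has a second library, so folds carry no error and none of the counts was set against a spread between replicates. Peak lists hold no expression values, so the identity of the lines could not be checked from them. A PRMT5 entry lay at 0 of 8 luminal and 0 of 4 basal or mesenchymal marker genes in either line. The luminal gene KLK2 had a METTL3 entry in PC3, and no other marker gene had one in either line.

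Lysosomal hydrolases are made in the endoplasmic reticulum, tagged with mannose 6-phosphate and carried to the lysosome, where they cleave proteins, glycans, lipids and nucleic acids at acid pH. Many of their genes carry a promoter element called CLEAR, an extended E-box that is bound by the factors TFEB, TFE3 and MITF, and that coordinates expression of lysosomal genes. PRMT5 dimethylates arginines symmetrically on histones and on splicing proteins, and METTL3 writes N6-methyladenosine on RNA.

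The promoters of 7 of the 8 genes with a PRMT5 summit at the start are shown first, because the entries lie on them. These 7 hold one of a pair of related motifs. The E-box is in 5 of the 8, and the M-box form was added after these sequences had been read. The promoter of GLA holds neither motif and is not shown. Sequences are from RefSeq, build GRCh38.p14, whose primary coordinates are those of hg38, and run 5′ to 3′ up to the base before the start. They span 250 bases, or stop at the start of a neighbour that reads the other way (TRAPPC2L for GALNS, NEURL2 for CTSA). Capitals mark the E-box core CACGTG and the related M-box form TCATGTG, which is also read as CACATGA on the other strand.
GALNS (chr16:88856948-88857126, minus strand): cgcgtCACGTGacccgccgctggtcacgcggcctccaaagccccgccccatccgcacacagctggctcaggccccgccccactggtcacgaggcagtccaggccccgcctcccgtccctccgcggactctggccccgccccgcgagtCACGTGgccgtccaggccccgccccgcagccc
GAA (chr17:80101331-80101580, plus strand): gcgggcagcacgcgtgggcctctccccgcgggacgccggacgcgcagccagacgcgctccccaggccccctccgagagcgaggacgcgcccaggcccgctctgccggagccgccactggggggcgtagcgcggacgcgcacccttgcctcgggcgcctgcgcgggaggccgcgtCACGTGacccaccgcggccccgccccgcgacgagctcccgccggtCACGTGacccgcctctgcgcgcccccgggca
CTSA (chr20:45891209-45891334, plus strand): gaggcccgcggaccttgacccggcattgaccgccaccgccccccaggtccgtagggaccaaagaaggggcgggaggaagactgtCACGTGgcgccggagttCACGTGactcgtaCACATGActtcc
NEU1 (chr6:31862822-31863071, minus strand): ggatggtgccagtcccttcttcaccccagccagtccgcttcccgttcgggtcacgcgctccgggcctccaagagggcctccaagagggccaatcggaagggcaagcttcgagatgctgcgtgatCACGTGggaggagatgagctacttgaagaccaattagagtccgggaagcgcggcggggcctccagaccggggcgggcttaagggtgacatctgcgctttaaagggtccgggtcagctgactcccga
CTSD (chr11:1763928-1764177, minus strand): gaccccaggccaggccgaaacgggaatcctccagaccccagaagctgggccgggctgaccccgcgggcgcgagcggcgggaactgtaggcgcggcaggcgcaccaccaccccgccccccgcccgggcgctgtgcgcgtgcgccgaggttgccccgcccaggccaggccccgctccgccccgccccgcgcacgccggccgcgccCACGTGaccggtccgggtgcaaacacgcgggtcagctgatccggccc
GRN (chr17:44345052-44345301, plus strand): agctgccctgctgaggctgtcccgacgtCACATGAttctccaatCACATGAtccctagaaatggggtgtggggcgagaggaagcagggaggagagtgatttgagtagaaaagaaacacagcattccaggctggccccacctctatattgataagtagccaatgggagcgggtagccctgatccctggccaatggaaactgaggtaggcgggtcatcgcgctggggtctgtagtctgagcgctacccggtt
TPP1 (chr11:6619423-6619672, minus strand): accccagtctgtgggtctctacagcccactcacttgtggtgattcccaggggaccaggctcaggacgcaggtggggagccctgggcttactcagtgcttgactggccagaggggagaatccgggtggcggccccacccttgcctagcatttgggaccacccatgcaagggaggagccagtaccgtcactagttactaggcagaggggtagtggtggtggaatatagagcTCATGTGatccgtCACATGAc

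PRMT5 entries lay at 10 of the 42 genes in LNCaP and at 6 in PC3, and the 6 PC3 genes were all among the 10. The shares were 23.8% in LNCaP and 14.3% in PC3, beside a background of 3.08% and 4.59% of all protein-coding genes. In both lines an entry lay at 6 genes, 14.3% beside a background of 1.39%. The entries of the lines overlapped by at least 1 bp at each of the 6, beside a background of 1.14%. They were GALNS, NEU1, CTSA, GAA, GLA and GRN. CTSD, TPP1, HEXA and IDUA had an entry in the LNCaP list and not in the PC3 list. Because the rule used these calls, nothing is read from the distance to the background. When an entry counted only for the protein-coding gene with the closest annotated boundary, 6 of the genes were left in LNCaP, 4 in PC3 and 3 in both lines. CTSA, GLA, NEU1 and IDUA lost their LNCaP entry to a neighbour, and CTSA and GLA their PC3 entry. The boundary of TRAPPC2L lies apart from the start given for it in the promoter table. When those starts were used as well, an alternative chosen after seeing the data, GALNS also lost its LNCaP entries. This left 5 genes in LNCaP, 4 in PC3 and 2, GAA and GRN, in both lines. With the lists cut to 173 entries each, 2 genes were left in LNCaP, 3 in PC3 and 1, GALNS, in both.

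METTL3 entries lay at 0 of the 42 genes in LNCaP and at 4 in PC3, AGA, GALC, GLB1 and SCPEP1. The PC3 share was 9.52%, beside a background of 11.6%, and the LNCaP background was 0.389%. In PC3 the share of these genes marked was thus near that of genes in general. None of the 42 genes had entries of both antibodies.

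**Figure D1:**
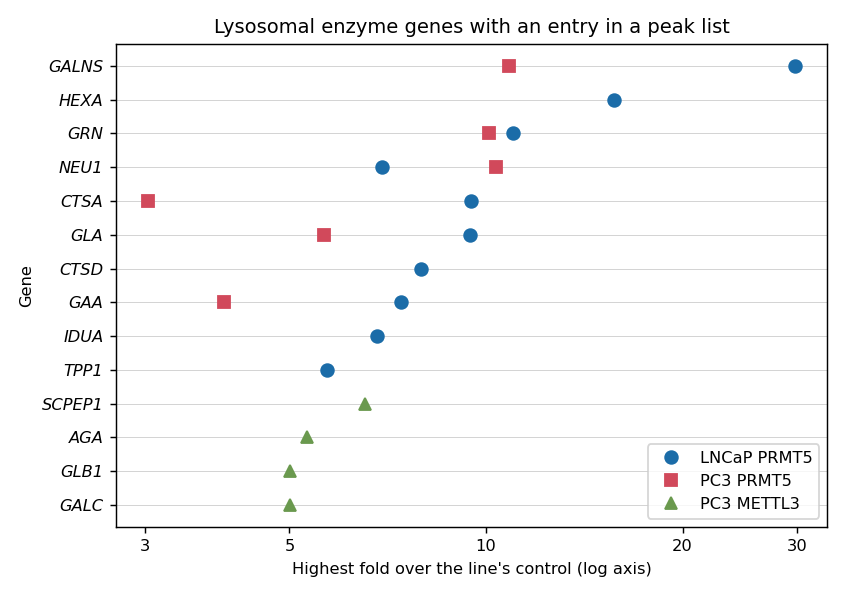
Highest fold over the control of the same line (log axis) for the 14 lysosomal enzyme genes with an entry, by list. GALNS had the highest PRMT5 fold of the genes in each line, and the 4 METTL3 genes sat between 5.01 and 6.52. Folds of different lists are not on a common scale.

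Among the 10 genes marked in LNCaP, the median of the highest PRMT5 fold was 8.71, beside 7.28 for all 617 protein-coding genes with an entry in that list. In PC3 it was 7.88 for the 6 genes, beside 6.12 for 919. For METTL3 in PC3 it was 5.16 for the 4 genes, beside 5.31 for 2332.

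GALNS, NEU1 and CTSA encode proteins found together in a lysosomal multienzyme complex, which also holds beta-galactosidase, the product of GLB1. GLB1 had no PRMT5 entry in either line. GALNS is the sulfatase that removes sulfate from keratan and chondroitin sulfate. Its promoter entry had a fold of 29.8 in LNCaP, rank 7 of 980 by fold, at chromosome 16, positions 88856907 to 88857463, with the summit 140 bp upstream of the start. The PC3 promoter entry had a fold of 10.8, rank 86 of 1661, with the summit 115 bp upstream. GALNS reads away from TRAPPC2L, which encodes a subunit of a vesicle tethering complex, and the LNCaP and PC3 summits lay 40 and 65 bp upstream of the TRAPPC2L start, between the starts of the pair. The promoter entry of either line therefore cannot be assigned to GALNS rather than TRAPPC2L.

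NEU1 encodes the lysosomal sialidase. Its LNCaP entry had a fold of 6.92, rank 444, at chromosome 6, positions 31862868 to 31863068. The PC3 entry had a fold of 10.4, rank 99, at positions 31862638 to 31863049. The summits lay 190 bp upstream of the start in LNCaP and 152 bp in PC3. The neighbour with the closest boundary to the LNCaP summit was SLC44A4, which reads the same way and ends at position 31863192. Its start was 15986 bp from the LNCaP summit and 16024 bp from the PC3 summit. CTSA, the protective protein that stabilises NEU1 in that complex and is also a carboxypeptidase, had a fold of 9.50 in LNCaP, rank 189, at chromosome 20, positions 45891095 to 45891358. In PC3 its fold was 3.04, rank 1590, with a −log10 q of 2.9, so CTSA stood among the weakest entries of that list. The summits were 80 and 64 bp upstream of the CTSA start, and also 47 and 63 bp upstream of the start of NEURL2, which reads the other way.

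GAA and GLA encode the acid alpha-glucosidase that degrades lysosomal glycogen and the alpha-galactosidase that degrades globotriaosylceramide. GAA had a fold of 7.40 in LNCaP, rank 358, at chromosome 17, positions 80101370 to 80101555. In PC3 it had a fold of 3.97, rank 1475, within a wider entry at positions 80101274 to 80101734. The summits lay 132 and 109 bp upstream of the start. GLA had a fold of 9.46 in LNCaP, rank 195, at chromosome X, positions 101408045 to 101408254, and of 5.64 in PC3, rank 926. Its summits lay 246 and 253 bp upstream, which is only 51 and 44 bp upstream of the start of HNRNPH2, a splicing factor gene that reads the other way.

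GRN encodes progranulin, a secreted and lysosomal glycoprotein that is cleaved into granulins. Its fold was 11.0 in LNCaP, rank 127, at chromosome 17, positions 44345051 to 44345329, and 10.1 in PC3, rank 109, at positions 44344959 to 44345438. The summits were 166 and 111 bp upstream of the start. A second PC3 entry, of fold 5.86, lay 975 bp into the gene. No other annotated gene lay within 3 kb of the GRN summits.

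GALNS carried 8 separate PRMT5 entries in PC3 and 2 in LNCaP. Beside the promoter entry, the PC3 list held entries of fold 7.13 at 832 bp upstream, 8.15 at 907 bp into the gene, 3.96 at 2553 bp, 6.25 at 3182 bp, 5.51 at 6748 bp, 6.77 at 13478 bp and 3.77 at 25384 bp. The second LNCaP entry, of fold 4.04, lay 1084 bp into the gene. The PC3 entries thus reached 25384 bp into a gene of 43.2 kb. Not all of them belong to GALNS alone: the entry at 832 bp upstream lay 652 bp into TRAPPC2L, and those at 907 and 1084 bp lay in the noncoding gene LOC107983950, which overlaps the first stretch of GALNS. Only 6 protein-coding genes had at least 8 entries in the PC3 PRMT5 list, 0.653% of those with any. With 100 kb added on both sides, 12 PC3 PRMT5 entries lay around GALNS, and the next of the 42 genes had 7. With 500 kb added, GALNS had 13 and the highest of the 42 genes had 16. METTL3 entries in the same stretch numbered 0 in either line.

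**Figure D2:**
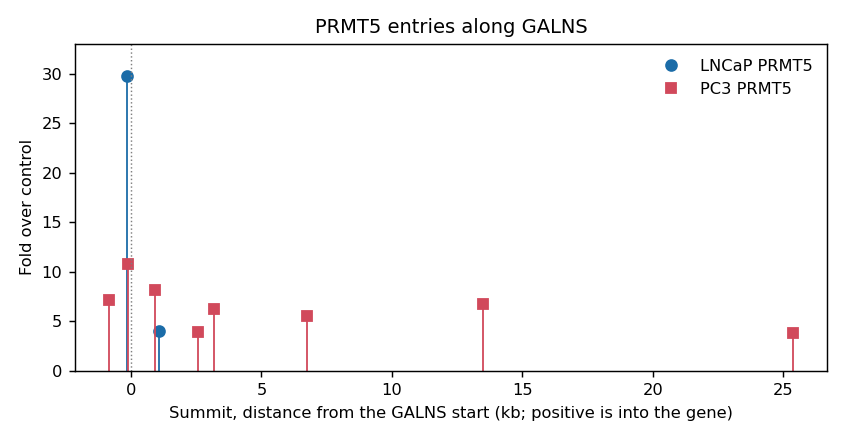
PRMT5 entries along GALNS by the distance of the summit from the start in kb and by fold over control. Both lines have their highest entry just upstream of the start, and 6 of the 8 PC3 entries lie inside the gene.

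In LNCaP 4 further genes had a PRMT5 entry. CTSD, an aspartic protease abundant in lysosomes, had a fold of 7.96 at chromosome 11, positions 1763700 to 1764119, with the summit 54 bp upstream of the start. TPP1, a tripeptidyl peptidase, had the lowest fold of the 10, 5.71, with a −log10 q of 3.1, at chromosome 11, positions 6619463 to 6619595, 44 bp upstream of its start. HEXA, the alpha subunit of beta-hexosaminidase, had the second highest fold, 15.7, rank 50, in an entry 1336 bp wide at chromosome 15, positions 72375445 to 72376780. Its summit lay 92 bp beyond the higher end of the gene, between HEXA and the antisense gene HEXA-AS1. IDUA, the alpha-iduronidase of heparan and dermatan sulfate breakdown, had a fold of 6.80 in an entry 5661 bp into the gene. IDUA overlaps the sulfate transporter gene SLC26A1, and this summit lay 699 bp into SLC26A1 from its start. The absence of these 4 from the PC3 list was not tested as a difference between the lines.

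A start site with strand was given for 31 of the 42 genes. Among these, 8 in LNCaP and 6 in PC3 had a PRMT5 summit within 3 kb of the start, 25.8% and 19.4% beside a background of 1.70% and 1.65% of 15842 protein-coding genes. For METTL3 in PC3, 2 of 31 did, 6.45% beside a background of 1.41%. The summit nearest each start lay upstream of it at all 8 genes in LNCaP, from 44 to 246 bp away, and at all 6 in PC3, from 64 to 253 bp. The median was −136 bp in LNCaP and −113 bp in PC3. Over all 270 genes marked at the start in LNCaP the median was −141.5 bp, and 55.2% of summits lay within 300 bp upstream. Over the 262 of PC3 the median was −111 bp and this share 42.4%. At the 6 genes marked in both lines the paired summits were 7 to 55 bp apart, with a median of 24 bp, beside 40.5 bp for all 130 genes marked at the start in both lines. The median positions at the lysosomal genes were close to those over all marked genes in each line. Over all marked genes the summits ranged from −2708 to 2953 bp in LNCaP and from −2965 to 2878 bp in PC3. A range widens with the number of genes, so nothing is read from the narrower ranges at the lysosomal genes.

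**Figure D3:**
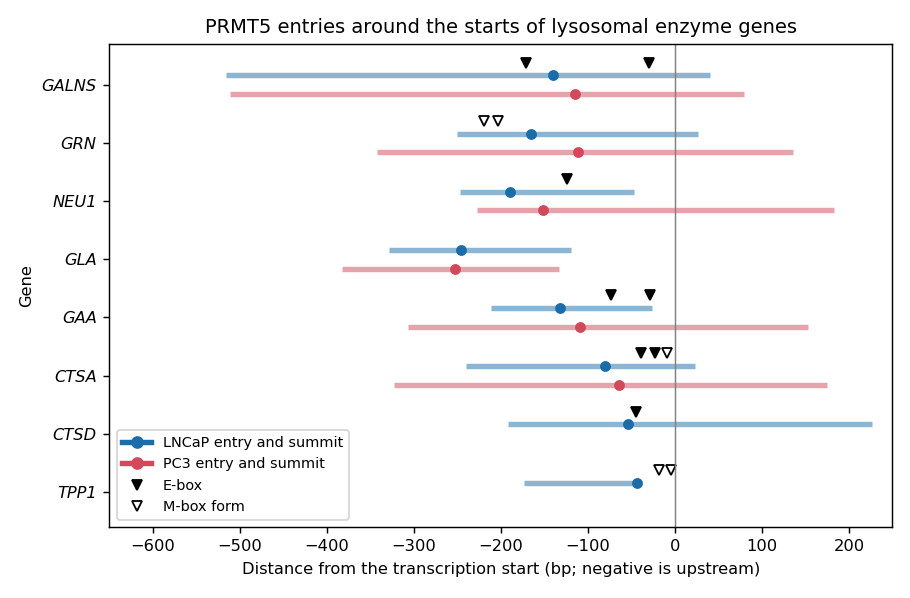
PRMT5 entries (bars) and summits (circles) by distance from the transcription start for the 8 genes with a summit within 3 kb of the start, with triangles for E-boxes and M-box forms in the promoter. Every summit nearest the start is upstream of it. CTSD and TPP1 have no PC3 entry, and the entries of GALNS and GRN farther from the start fall outside the axis.

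The promoters were searched on both strands in the window from 250 bases before to 50 after each start. CACGTG was present in 5 of the 8 promoters with a PRMT5 summit at the start, those of GALNS, GAA, CTSA, NEU1 and CTSD, and in 2 of the other 23, those of CTSF and SCPEP1. These shares were 62.5% and 8.70%, and 8.88% of all 15842 protein-coding promoters held it. In each of the 5 the E-box was part of the longer TCACGTG, found in 4.78% of all promoters and, by construction, overlapping the E-box. The promoters of CTSF and SCPEP1 held TCACGTG too, as did 46.3% of all those with a PRMT5 summit at the start in LNCaP. The full 10-base palindrome GTCACGTGAC, the CLEAR element in its strictest form, was present in GAA at 2 places and in GALNS at 1, and in 0.568% of all promoters. GRN and TPP1 held no CACGTG. They held the M-box form TCATGTG at 2 places each, against 2.27% of all promoters with any. Where a PRMT5 summit lay at the start, 5.56% of promoters in LNCaP and 4.96% in PC3 held the M-box form. This motif was added after the sequences had been read. With both motifs counted, 7 of 8 promoters with a summit had one, a share raised in part by that choice. The same was true of 4 of the other 23, 10.9% of all promoters, 53.7% of those with a summit at the start in LNCaP and 61.5% of those marked in both lines. GLA had neither.

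The E-box was also frequent outside the lysosomal enzymes where PRMT5 summits lay at the start. The 8 promoters above were all marked in LNCaP, though not all in PC3. CACGTG was present in 52.2% of all 270 promoters marked at the start in LNCaP and in 46.2% of the 262 in PC3. Among all 130 protein-coding genes with a PRMT5 summit at the start in both lines, 60.8% held CACGTG and 23.1% the 10-base palindrome. Without the lysosomal enzyme genes, 60.5% of 124 and 22.6% did. Among the 15440 genes with a PRMT5 summit at the start in neither line these shares were 7.93% and 0.291%. For the 223 genes with a METTL3 summit at the start in PC3 they were 8.97% and 0%. The GC box GGGCGG was present in 75% of the 8 promoters, 87% of the other 23 and 58.5% of all. CCAAT was present in 37.5%, 34.8% and 36.4%, and the AP-1 motif TGANTCA in 0%, 4.35% and 5.75%. The median G+C content was 65.2% in the 8, 66.0% in the 23 and 62.7% in all promoters. These are shares of letters found, with no test, and do not show which factor sits there.

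**Figure D4:**
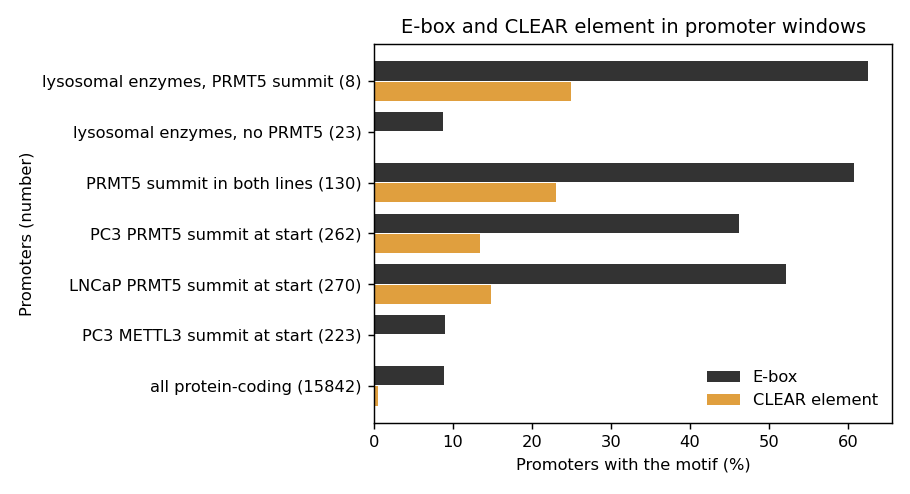
Percent of promoters with the E-box or the strict CLEAR element, by set of promoters, with the number of promoters in brackets. The 8 lysosomal enzyme promoters with a PRMT5 summit, all marked in LNCaP, stand at 62.5% for the E-box. All genes marked at the start stand at 52.2% in LNCaP, 46.2% in PC3 and 60.8% in both lines, and all protein-coding genes at 8.88%.

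The summits of these genes all lie within or next to the window that was searched, which limits how far a match can be. In LNCaP the distance from the summit to the centre of the nearest match was 9.5 bp at CTSD, 26 bp at TPP1, 31.5 bp at GALNS, 37 bp at GRN, 40.5 bp at CTSA, 58.5 bp at GAA and 66.5 bp at NEU1. In PC3 it was 24.5 bp at CTSA, 28.5 bp at NEU1, 35.5 bp at GAA, 56.5 bp at GALNS and 92 bp at GRN. The farthest matches lay 110.5 bp from the summit at GALNS and 103.5 bp at GAA in LNCaP, and 108 bp at GRN in PC3. The entry covered 11 of the 13 matches in LNCaP and all 10 in PC3. The 2 not covered were those of TPP1, 21 to 2 bases before the start, between the end of the entry and the start.

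The METTL3 entries of PC3 at these genes lay mostly inside them, under a rule that takes only summits inside a gene or within 3 kb of its start or end. AGA, which removes the glycan from asparagine, had an entry of fold 5.31 at 6459 bp into the gene, at chromosome 4, positions 177435866 to 177436157. GALC, the galactosylceramidase, had 1 of fold 5.01 at 829 bp into the gene, and GLB1, the lysosomal beta-galactosidase, 1 of fold 5.01 at 91429 bp into its 136 kb. SCPEP1, a serine carboxypeptidase relative of CTSA, had 2, of fold 6.52 at 1481 bp upstream and 6.03 at 19365 bp into the gene. Of these 5 entries, 4 were 292 bp wide, the smallest width in the list, which 72.9% of its entries had. The fold of the GALC and GLB1 entries, 5.01, was that of 572 entries of the list, these included. At a −log10 q of at least 3, AGA and SCPEP1 remained.

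No entry of any list lay at 28 of the 42 genes. By class, PRMT5 entries in LNCaP were found at 5 of 14 glycosidases, 3 of 13 proteases, 1 of 5 sulfatases and 1 of the 3 activators and progranulin. In PC3 these counts were 3, 1, 1 and 1. They were found at 0 of 5 lipases and esterases (ASAH1, SMPD1, LIPA, PPT1 and PLA2G15) and at neither the phosphatase ACP2 nor the nuclease DNASE2. The cysteine cathepsins CTSB, CTSC, CTSF, CTSH, CTSK, CTSL, CTSS and CTSZ and the legumain gene LGMN had no entry, nor did the sphingolipid activator genes PSAP and GM2A. The same held for GUSB, MAN2B1, MANBA, FUCA1, NAGLU, HYAL2, ARSA, ARSB, IDS and SGSH. A gene without an entry was not called at the authors' threshold, and the lists cannot show that the protein was absent there.

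The farthest PRMT5 summit counted outside a gene was 0.83 kb from GALNS in PC3. The nearest not counted was 3.92 kb from SGSH in PC3, with a fold of 3.32, followed by 10.6 kb from MAN2B1 and 35.9 kb from DNASE2. In LNCaP the nearest not counted were 22.6 kb from NAGLU, 45.4 kb from LGMN and 56.9 kb from DNASE2. For METTL3 in PC3, the farthest summit counted outside a gene was 1.48 kb from SCPEP1, and the nearest not counted were 5.93 kb from CTSF, 13.2 kb from GAA and 15.0 kb from GM2A. No LNCaP METTL3 summit lay closer than 82.1 kb to any of the 42 genes, the nearest being at CTSD.

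Other lysosomal genes, from lists that were also written with earlier results in view, carried PRMT5 entries as well. Of 25 subunits of the vacuolar proton pump, which acidifies the lysosome, 5 had one in each line, 20% each time, led by ATP6V1G1 with a fold of 32.4 in LNCaP and ATP6V0D1 with 12.9 in PC3. Of 40 lysosomal membrane proteins and channels, 7 had one in each line, 17.5%, among them PIP4P1, a phosphoinositide phosphatase (60.8 in LNCaP and 10.4 in PC3), the calcium channel MCOLN1 (17.0 in LNCaP and 6.31 in PC3) and the abundant membrane protein LAMP1 (6.58 and 16.6). Of 12 genes of the Ragulator, the Rag GTPases and folliculin, which signal nutrient state at the lysosome, 5 had one in LNCaP and 3 in PC3, with LAMTOR1 (23.8 and 2.54) and RRAGC (16.1 and 11.5) having the highest LNCaP folds. Of 15 genes for enzyme sorting and maturation, 2 and 1 did, namely IGF2R, a mannose 6-phosphate receptor, with a fold of 11.0 in LNCaP, and GNPTG, a subunit of the enzyme that makes the mannose 6-phosphate tag, with folds of 6.39 and 5.11.

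The list nearest in kind holds 34 further lysosomal enzymes and lumenal proteins, of which 2 had a PRMT5 entry in LNCaP and 4 in PC3. Their shares, 5.88% and 11.8%, stood beside 3.08% and 4.59% of all protein-coding genes and 23.8% and 14.3% of the 42 genes. The differences between the lists were not tested. PLD3, a lysosomal nuclease, had folds of 17.3 in LNCaP and 10.3 in PC3. None of TFEB, TFE3, TFEC and MITF had an entry in any list. For other organelles, PRMT5 entries lay at 0 of 31 proteasome subunit genes in both lines, at 0 and 1 of 29 peroxisomal genes, and at 4 and 1 of 27 genes of endoplasmic reticulum glycosylation and chaperones.

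**Figure D5:**
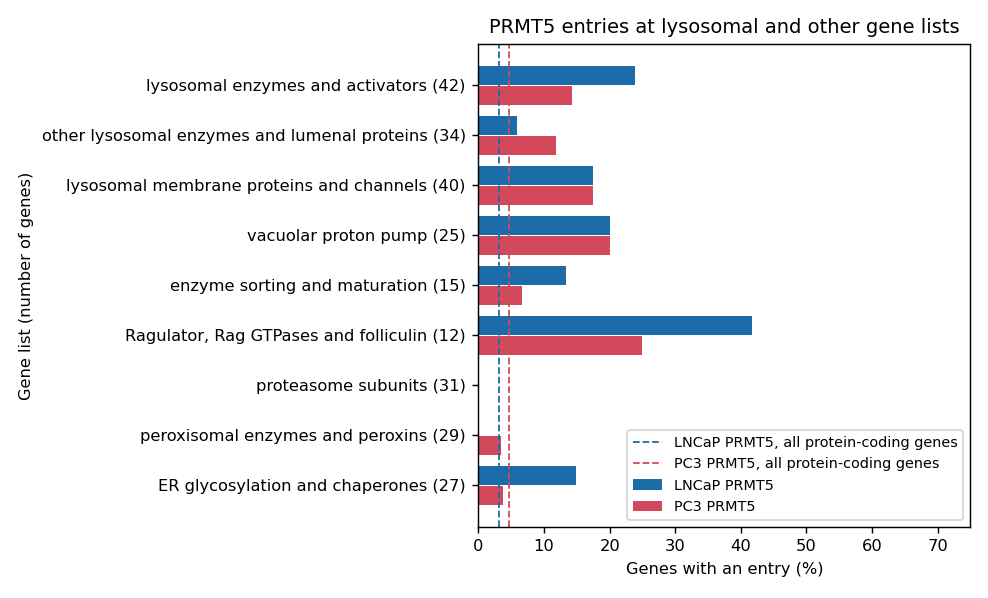
Percent of genes with a PRMT5 entry in each gene list, by line, with dashed lines for all protein-coding genes (3.08% in LNCaP and 4.59% in PC3). The lysosomal enzymes stand at 23.8% and 14.3%, and the proteasome list has no entry in either line.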

How the data were processed

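The lists were deposited by the authors as narrowPeak files, 1 for each antibody and line. MACS2 2.1.0, Bowtie 1.1.1, Trimmomatic 0.33, ChIPseeker, bcl2fastq 2.17 and the build hg38 are named in the submitters' processing notes. How duplicates and multiply mapped reads were treated, and the settings, were not given in the sources used here. The fold (a ratio over the control), the −log10 p and −log10 q values and the score (10 times −log10 q, in whole numbers) are the authors' deposited values per peak. The largest q was 0.0495.

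Entries of chromosomes 1 to 22, X and Y, that is 173 and 980 (METTL3 and PRMT5) in LNCaP and 7453 and 1661 in PC3, were joined to RefSeq genes of GRCh38.p14 with Python 3.11.15 and pandas 2.3.3. All 42 genes matched by symbol, 31 of them in the promoter table. CTSK, ARSA, LGMN, ASAH1, CTSS, PSAP, SGSH, MANBA, NAGLU, CTSB and HEXA were not matched there. The text names every member with an entry, the members without one by class, the 3 nearest outside the window in each list with members, and up to 4 genes of highest PRMT5 fold in each other lysosomal list. Some genes of those lists are counted but not reported here by name. The M-box form was added after the sequences had been read. Members, lists and motifs were chosen with earlier results of these data known. The assignment of summits to starts within 3 kb was tested on 200 planted summits. Of these, 150 lay inside the window and 150 were assigned, and of the 50 outside 0 were. The wider rule, which also takes summits inside a gene or near its end, was not tested in this way. With 1 library per group no replicate could be compared. Alternatives varied the window, the part of the gene, the thresholds, list length and neighbours. The control libraries were not analysed by themselves.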

Additional observations from a re-analysis of the deposited data

How the results depend on the processing

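Of 53 alternative values, 42 stayed within 1.5 times the reported count. These include every alternative for the LNCaP METTL3 count, which was 0 throughout and could not fall. A fall from 6 genes to 4 also counted as within 1.5 times. With every list cut to 173 entries by −log10 p, the number of genes with a PRMT5 entry was 2 in LNCaP (GALNS and HEXA), 3 in PC3 (GALNS, GRN and NEU1) and 1 in both lines (GALNS), and the METTL3 count in PC3 was 0. With each entry given to the nearest gene boundary only, PRMT5 counts were 6 in LNCaP, 4 in PC3 and 3 in both lines. With starts from the promoter table used as well, chosen after seeing the data, they were 5, 4 and 2. The METTL3 count in PC3 was 2 when gene bodies were not counted, 2 at starts only and 2 at a −log10 q of at least 3. In the other alternatives the 6 genes marked in both lines were at least 4, the lowest with a fold of at least 5, where CTSA and GAA were lost, and, for overlapping entries, with an overlap of at least 50% of both, where GAA and NEU1 were lost. Depth is unknown, so genes without an entry may lie under the limit of detection. No paired analysis was possible because every group has 1 library, and for the same reason no replicate could be left out.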
